A study of Mus musculus with 15 samples.

Results

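Kidneys with an obstructed ureter were compared with sham-operated kidneys, both from wild-type mice on the normal diet and both labelled day 14. The comparison held 6 libraries of unilateral ureteral obstruction (UUO) and 3 sham libraries, chosen by their group labels, which together made 9 of the 15 libraries of the series. The other 6 came from obstructed kidneys of mice on a silicon-based diet and entered the expression filter, the scaling and the estimate of the spread between libraries, but not the contrast. The series was set up to follow the effect of the oral silicon-based agent on kidney RNA, and the comparison described here sets obstructed against sham-operated kidneys on the normal diet. The labels gave the genotype, operation, diet and day but no strain, age or sex, and they did not say whether the libraries were separate animals, so p-values measure the spread between these samples, which may be technical. In the text a kidney means 1 library.

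Tying the ureter raises the pressure in the tubules of that kidney while the other kidney keeps the animal alive. The tubule epithelium, which spends most of the kidney's energy on moving sodium and on rebuilding amino acids and glucose, loses its transport machinery, and the interstitium fills with fibroblasts, matrix and immune cells. The best known parts of this response are matrix and tubule marker genes. The account below covers the whole table of expressed genes and turns to pathways beyond those markers.

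Total expected counts were 5526640 to 8308120 in sham and 11151000 to 15422600 in UUO, and 16752 of the 24421 genes in the table were expressed highly enough to be tested. Sham kidney 3 and UUO kidneys 5 and 6 stood apart from the rest. Of 1456 olfactory and vomeronasal receptor genes, which encode receptors of sensory neurons, these 3 libraries had a rounded count of at least 1 in 1227, 785 and 1258, against 83 to 136 in the other 6. Sample codes of the sham kidneys began with RM1, those of UUO kidneys 1 to 4 with RM3 and those of UUO kidneys 5 and 6 with RM6. The labels do not explain the codes, so code and operation cannot be told apart. As a look at the tissue label, all 12 kidney segment genes had a rounded count of at least 1 in every library. Most receptor genes also passed that bar in the 3 libraries set apart, so detection alone does not settle the tissue. The summed level of the segment genes was 15530 to 18480 CPM in sham and 2676 to 3094 CPM in UUO, where CPM is the count over the scaled library size, times 1000000.

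Most expressed genes differed between obstructed and sham kidneys. Of the 16752 genes tested, 4609 were higher in UUO (27.5%) and 4427 were lower (26.4%), so that 53.9% passed edgeR's quasi-likelihood test at a Benjamini-Hochberg adjusted p of 0.05. In the text, rose and fell are used only of genes that passed this test, and values given with ± after a log2 fold change (UUO minus sham) are its standard error. A count of list members below is to be read beside the shares over all genes, and a count near them is no result about the list. The median log2 fold change was 1.06 among genes that rose and -0.97 among genes that fell. At least 4-fold changes were seen in 911 genes upward (5.44%) and 783 downward (4.67%), at least 8-fold changes in 295 and 321, and at least 64-fold changes in 15 and 10. All 6 UUO libraries lay above all 3 sham libraries for 24.6% of genes and below them for 22.3%, so the groups did not overlap for 46.9%. The typical gene of at least 10 CPM varied little within a group, with a median standard deviation of log2 CPM of 0.18 in sham and 0.19 in UUO over 11116 genes.

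Those shares depended on the scaling and on sham kidney 3. With libraries scaled by their total counts only, the median gene moved from -0.04 to 0.19 on the log2 scale and 6213 genes rose against 3030 that fell. Without sham kidney 3 the count of genes at least 4-fold higher was 1507, and without the 4 receptor-gene libraries of the series it was 1398, while the matching counts at least 4-fold lower were 775 and 842. A fold that moved by over 1.5 times without 1 kidney is given below with and without it.

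**Figure D1:**
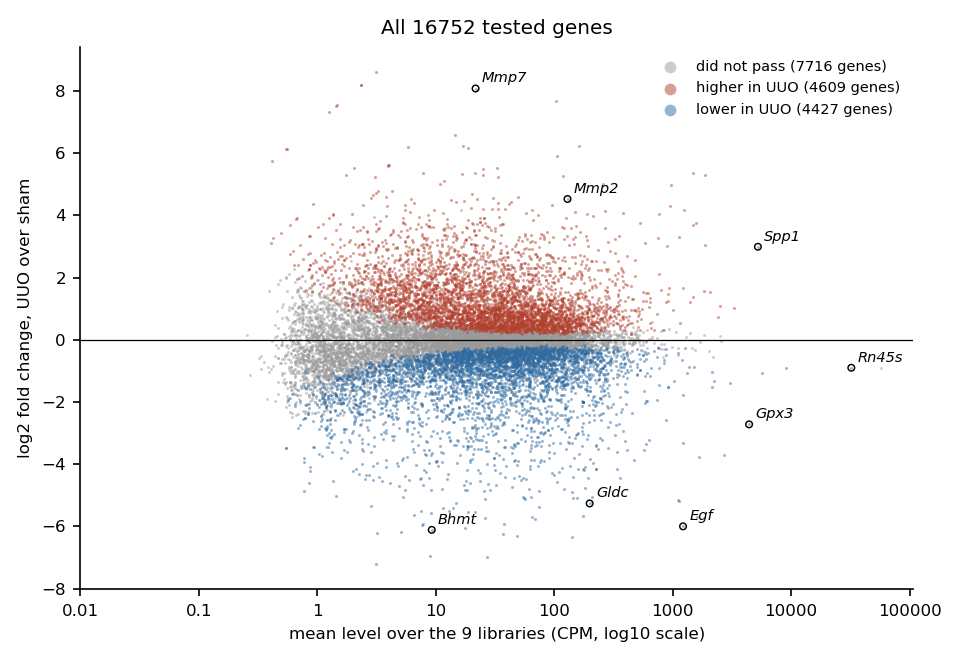
Log2 fold change (UUO minus sham, vertical axis) against mean CPM over the 9 libraries (horizontal log axis) for the 16752 genes tested, with the genes that rose and fell coloured and 8 named genes labelled. The 4609 genes that rose and the 4427 that fell lie on both sides at all levels, with wider scatter at low CPM.

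A larger share of abundant genes than of rare ones passed the test. Between 100 and 1000 CPM, 32.4% of 2224 genes rose and 34.3% fell, with a median standard error of 0.12. Under 1 CPM, 5.46% of 696 genes rose and 6.03% fell, with a median standard error of 0.84. A gene of that level that did not pass cannot be read as steady at this depth.

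The make-up of the RNA pool shifted. Genes that fell held 49.5 ± 0.75% of the counts of tested genes in sham (SD, n = 3) and 25.7 ± 0.98% in UUO (n = 6), and genes that rose held 14.9 ± 1.01% and 37.6 ± 3.57%. The 911 genes at least 4-fold higher went from 0.93 ± 0.20% to 8.22 ± 1.48% of the pool. The 783 genes at least 4-fold lower went from 12.1 ± 0.36% to 1.66 ± 0.38%. These classes were drawn from the same comparison, so the shares describe its size and test nothing.

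**Figure D2:**
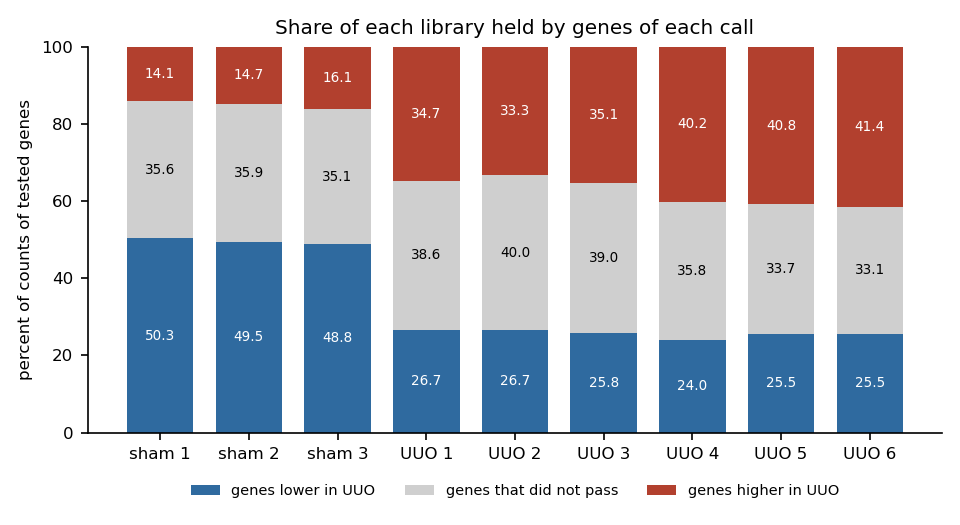
Share of the counts of tested genes in each library (vertical axis, percent) held by genes that rose, genes that fell and genes that did not pass the test, 1 stacked bar per library for 3 sham and 6 UUO kidneys. Genes that fell hold 48.8% to 50.3% of each sham library and 24.0% to 26.7% of each UUO library.

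Changes in CPM were ranked among genes with an established symbol that passed the test and did not overlap between the groups. The largest rise was that of Spp1, which encodes the secreted phosphoprotein osteopontin. Its level was 1008, 903 and 885 CPM in sham and 5152 to 10964 (median 6069) in UUO. Next to fibrillar collagens and fibronectin, the rises that added most RNA included those of Clu, the secreted chaperone clusterin (log2 fold change 3.69 ± 0.24), Myh9, the heavy chain of non-muscle myosin IIA (1.02 ± 0.14), Ahnak (1.54 ± 0.17) and Cd74, the invariant chain of class II antigen presentation (3.31 ± 0.25). In the other direction Gpx3, the glutathione peroxidase that proximal tubules secrete into plasma, had the largest fall in CPM among these ranked genes after Rn45s. It was at 11400.1, 10409 and 8702 CPM in sham and 839 to 2818 (median 1123) in UUO. Kap, an androgen-regulated protein of the proximal tubule, went from 3128, 2932 and 3669 to 53.3 to 231 (median 63.9) CPM. The fall of Kap was smallest in UUO kidney 6, at 231 CPM, and the groups did not overlap. The falls that removed most RNA also held those of 2 structural genes, Tns1, which links actin to integrins (-1.53 ± 0.14), and Dst, a cytolinker (-1.31 ± 0.22).

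The 10 genes with the smallest p in each direction were taken next. Upward they were D17H6S56E-5, Mmp2, Tmsb10, Dpysl3, Arl4c, Col15a1, Myof, Sox4, Axl and Lbh, with adjusted p from 2.2e-12 to 4.4e-11. Lbh, a transcription cofactor of limb and heart development, was at 53.3, 53.2 and 52.7 CPM in sham and 266 to 334 (median 314) in UUO. Axl, a receptor tyrosine kinase that binds GAS6 and takes part in the clearance of dying cells, was at 74.7, 85.8 and 82.8 CPM in sham and 346 to 435 (median 391) in UUO. Downward they were Slc6a20b, Slc22a5, Slc16a4, Slc37a4, Slc6a15, Rnf24, Sgk2, Gldc, Aspa and Prodh, of which 5 are membrane carriers (Slc). Rnf24, a membrane-bound ubiquitin ligase, fell from 195, 280.3 and 299 to 16.3 to 26.3 (median 20.6) CPM. Sgk2, a kinase of the serum and glucocorticoid kinase family, fell from 149.6, 145 and 93.2 to 5.84 to 10.3 (median 7.83) CPM.

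Promoters of the genes that changed most were searched for 6 short motifs, whose shares are given with no test. For 12359 of the 16752 genes RefSeq gave 15600 windows from 250 bases before to 50 bases after a transcription start (build GRCm38.p6), and each was searched on both strands. The letters TGANTCA, the site of FOS and JUN dimers (AP-1), were in 14.8% of the windows of genes that rose at least 8-fold (35 of 237), in 9.86% of those that rose 4-fold to 8-fold, in 6.19% of those that fell at least 8-fold, in 7.75% of those that fell 4-fold to 8-fold and in 5.87% of all windows. The interferon response element, searched as GAAA, any 2 bases and GAAA, was in 7.17% of the windows of genes that rose at least 8-fold, in 3.09% of those that fell at least 8-fold and in 3.11% of all. The other sites were GGAATG of TEAD factors (12.7%, 16.8% and 12.9% in the same order), CCAAT of the factor NF-Y (30.4%, 41.6% and 37.0%) and TTTCGCGC of E2F factors, with 3 matches among genes that rose at least 8-fold, 0 among those that fell at least 8-fold and 84 in all windows. Both groups had few CG pairs: a median of 4 in windows of genes that fell at least 8-fold and 6 in those that rose at least 8-fold, against 18 in all windows, and TATAAA, the TATA box, was in 16.5% and 16.9% against 8.12%. A match is a run of letters and not a shown binding site.

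Windows of 4 genes that rose and hold an AP-1 site are shown, since the share with that site was higher among genes that rose most. Each runs from 100 bases before the start to the base before it, 5′ to 3′ on the gene's strand, with the match on either strand in capitals. The genes encode the protease matrilysin (Mmp7), a prothrombinase of macrophages and lymphocytes (Fgl2), the receptor of complement fragment C3a (C3ar1) and a binding protein of insulin-like growth factors (Igfbp2). They lie at chr9:7691990-7692089 on the + strand, chr5:21372573-21372672 on the + strand, chr6:122856158-122856257 on the - strand and chr1:72825287-72825386 on the + strand.
Mmp7: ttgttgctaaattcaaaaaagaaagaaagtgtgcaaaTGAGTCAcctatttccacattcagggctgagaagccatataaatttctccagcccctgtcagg
Fgl2: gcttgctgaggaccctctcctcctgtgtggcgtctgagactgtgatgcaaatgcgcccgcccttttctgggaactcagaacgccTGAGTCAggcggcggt
C3ar1: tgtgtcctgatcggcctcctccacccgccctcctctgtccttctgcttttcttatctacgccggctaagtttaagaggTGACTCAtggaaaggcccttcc
Igfbp2: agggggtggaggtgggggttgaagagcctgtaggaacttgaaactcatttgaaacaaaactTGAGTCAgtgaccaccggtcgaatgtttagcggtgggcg
The matches begin 63 bases before the start in Mmp7, 16 in Fgl2, 22 in C3ar1 and 39 in Igfbp2. Mmp7 was at 0, 0 and 0.379 CPM in sham and 22.9 to 50.2 (median 28.7) in UUO, and Fgl2 at 6.88, 3.84 and 12.7 and 66.8 to 94.2 (median 78.9). C3ar1 was at 1.15, 1.92 and 7.199 CPM in sham and 44.4 to 55.1 (median 48.6) in UUO. Its log2 fold change of 3.94 was 5.03 without sham kidney 3, the highest of the sham values, and that of Mmp7, of which the sham libraries held 2 counts in all, is not given as a fold.

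Most enzymes between tryptophan and NAD fell. Of 35 genes of NAD and tryptophan metabolism tested, 24 fell and 5 rose. Their median log2 fold change was -1.27, where that over all genes was -0.04. Tdo2, which opens the route, did not pass (-1.32 ± 0.71), whereas Afmid, Kmo, Kynu and Haao, the enzymes that follow, all fell. Haao, which makes the precursor of quinolinate, was at 90.1, 83.1 and 76.7 CPM in sham and 3.21 to 6.28 (median 5.44) in UUO, a log2 fold change of -4.04 ± 0.20 (adjusted p = 1.1e-10, edgeR's quasi-likelihood test). Kmo went from 92.4, 81.2 and 84.5 to 9.32 to 17.04 (median 14.7) CPM. Acmsd, which diverts the same intermediate away from NAD, fell more than any other member, from 70.9, 88.1 and 79.9 to 1.36 to 5.29 (median 2.05) CPM (-4.81 ± 0.34). Qprt, which commits quinolinate to NAD synthesis, fell by 2.17, and Nadsyn1, which makes NAD itself, by 1.92 on the log2 scale. The salvage enzyme Nampt fell less (-0.71 ± 0.15), and the mitochondrial deacetylase Sirt3, which uses NAD, fell by 2.21. The 5 genes that rose were the NAD hydrolases Cd38 (1.36 ± 0.19) and Bst1 (0.94 ± 0.15), the ADP-ribosyltransferase Parp14 (1.30 ± 0.14), the deacetylase Sirt6 (0.72 ± 0.23) and Nnmt (1.53 ± 0.52), which methylates nicotinamide. Cd38 was at 9.46, 5.59 and 12.1 CPM in sham and 19.97 to 27.96 (median 22.6) in UUO. Sirt6 did not pass without sham kidney 1 (adjusted p = 0.065) or sham kidney 3 (0.055), and Nnmt, whose groups overlapped, did not pass without sham kidney 1 (0.092) or 2 (0.10), so 3 genes of the list rose without sham kidney 1. The log2 fold change of Nnmt was 2.38 without sham kidney 3.

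Of 55 genes of one-carbon, purine and pyrimidine metabolism 28 fell and 12 rose (median -0.50). Gldc, the decarboxylase that opens glycine cleavage, was at 584, 638 and 481 CPM in sham and 12.1 to 17.7 (median 13.96) in UUO, a log2 fold change of -5.26 ± 0.22 (adjusted p = 3.4e-11, edgeR's quasi-likelihood test). The serine hydroxymethyltransferases Shmt1 and Shmt2 both fell, Shmt2 from 202, 183 and 119 to 28.05 to 36.02 (median 31.4) CPM, and Mthfd1, the cytosolic 3-function folate enzyme, fell from 424, 425 and 350.5 to 65.8 to 85.5 (median 79.8) CPM. In the passage of homocysteine to cysteine Cbs fell by 3.21 and Cth fell by 3.42. In the choline branch Dmgdh, which demethylates dimethylglycine, fell by 4.42 and Sardh fell by 2.80. Among the 12 that rose were Rrm1 (1.05 ± 0.14) and Rrm2 (1.42 ± 0.23), the subunits of ribonucleotide reductase, Dck (1.65 ± 0.19), which salvages deoxycytidine, Impdh1 (1.04 ± 0.18), which opens guanine nucleotide synthesis, and the mitochondrial folate enzyme Mthfd2 (1.25 ± 0.30). Tyms, which makes thymidylate, fell (-0.93 ± 0.27), and it did not pass without sham kidney 3 (adjusted p = 0.17). Mthfd2, which proliferating cells use in place of the adult route, was at 4.01, 2.24 and 5.87 CPM in sham and 6.78 to 11.1 (median 10.1) in UUO.

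The kidney makes arginine and a creatine precursor for the whole body. Of 30 genes of arginine, polyamine and creatine metabolism 16 fell and 5 rose (median -0.42), or 8 with total counts only. Ass1, which builds argininosuccinate from citrulline, was at 713, 650.3 and 466 CPM in sham and 21.3 to 56.6 (median 24.8) in UUO (-4.16 ± 0.38). Gatm, which makes the creatine precursor guanidinoacetate, went from 353, 341 and 301 to 24.3 to 50.8 (median 28.8) CPM, and Prodh, which opens proline breakdown, from 652, 604 and 323 to 30.4 to 41.5 (median 37.5). None of the 3 overlapped between the groups. The reverse of Prodh, proline synthesis from glutamate, opens with Aldh18a1, and this gene rose (1.75 ± 0.17). Paralogs moved apart: Ddah1, which breaks down the nitric oxide synthase inhibitor dimethylarginine, fell from 138, 139 and 159 to 38.7 to 81.3 (median 55.7) CPM, and Ddah2 rose from 11.6, 7.83 and 11.4 to 34.3 to 39.3 (median 36.6). The neuronal-type nitric oxide synthase Nos1 fell (-2.19 ± 0.32), while the inducible Nos2 rose (1.14 ± 0.33), a call that was lost without sham kidney 1 (adjusted p = 0.062). Without that kidney 3 genes of the list rose. Smox, which oxidises the polyamine spermine, rose from 6.16, 6.23 and 7.199 to 18.7 to 23.1 (median 21.9) CPM.

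**Figure D3:**
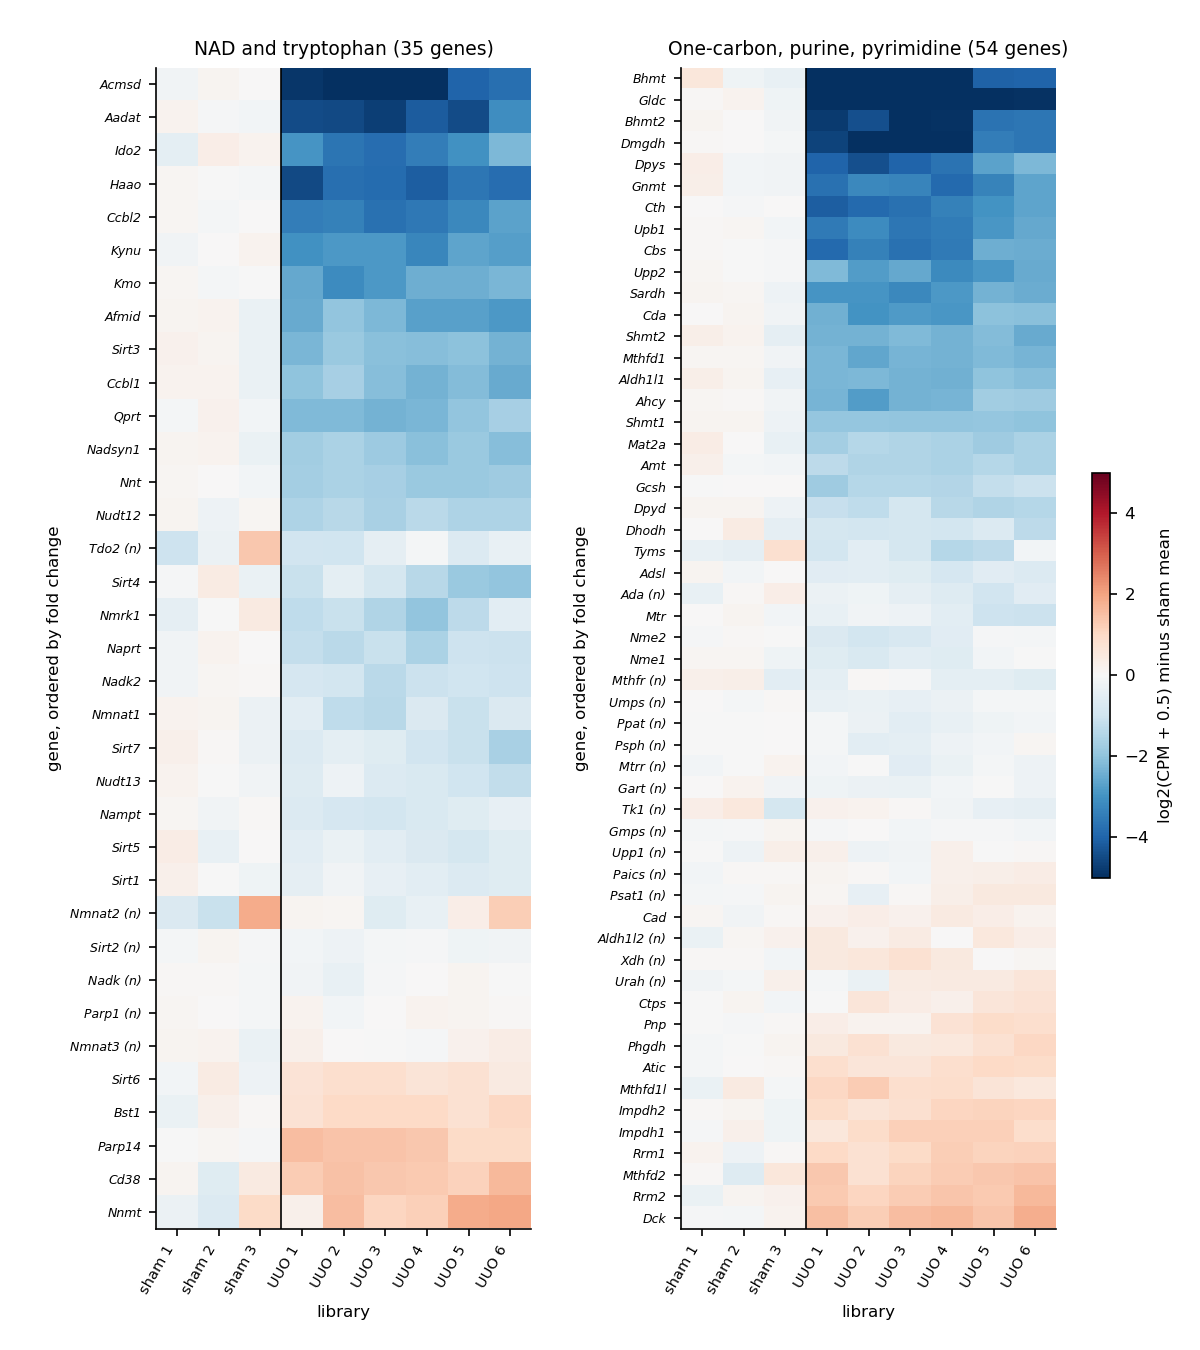
Change of 35 genes of NAD and tryptophan metabolism (left) and 54 of the 55 genes of one-carbon and nucleotide metabolism (right), as log2(CPM + 0.5) minus the sham mean, with colour limits of -5 and 5, rows as genes ordered by fold change and columns as 3 sham and 6 UUO kidneys; (n) marks genes that did not pass the test. Acmsd, Haao and Gldc are low in all 6 UUO kidneys, and Cd38, Rrm2 and Dck are high in all 6.

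The sodium pump, which drives tubule transport, is built from an alpha, a beta and an FXYD subunit. All 14 genes of its subunits were tested: 4 fell, 8 rose and 2 did not pass. Among those that fell were renal forms. The beta subunit Atp1b1 was at 2452, 2316 and 2160.2 CPM in sham and 615 to 737 (median 668) in UUO (-1.77 ± 0.16), and the gamma subunit Fxyd2 at 1268, 1181 and 1104 and 211 to 362 (median 273) (-2.04 ± 0.22). For both genes every UUO value was below every sham value. Among those that rose were forms known from other tissues. Fxyd5, also called dysadherin, was at 7.74, 8.15 and 9.47 CPM in sham and 42.3 to 61.02 (median 53.9) in UUO (2.65 ± 0.16), and Fxyd6, best known from brain, at 1.86, 2.24 and 2.65 and 10.4 to 24.2 (median 17.7). The muscle form Fxyd1 (phospholemman) rose by 1.49, Atp1b2 by 0.89 and Atp1b3 by 0.61 on the log2 scale. Fxyd3 rose to 0.924 to 2.16 CPM from 0 to 0.573 (log2 fold change 2.56, and 4.06 without sham kidney 1). The collecting duct form Fxyd4 fell (-0.96 ± 0.28), which did not pass without sham kidney 1 (adjusted p = 0.067). Atp1a4 and Fxyd7 did not pass (-1.86 ± 1.21 and -0.33 ± 0.84).

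**Figure D4:**
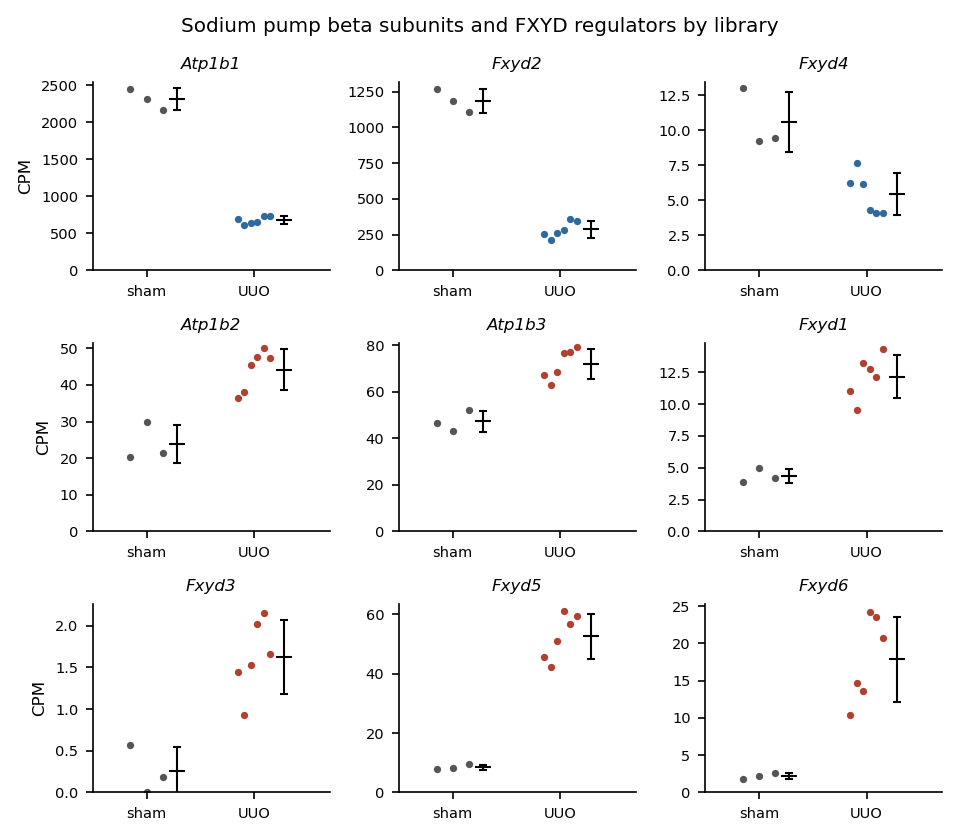
CPM (linear axes from 0, 1 panel per gene) of 9 beta subunit and FXYD genes that passed the test, with 3 sham and 6 UUO kidneys as points and the mean ± SD of each group beside them, cut off at 0. Atp1b1 and Fxyd2 lie lower in all UUO kidneys and Fxyd5, Fxyd6 and Fxyd1 lie higher in all of them.

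More membrane carriers fell than rose. Of 328 solute carrier genes (Slc symbols) tested, 176 fell and 54 rose, with a median of -0.68. Slc34a1, the phosphate carrier of the proximal tubule, was at 3616, 3484 and 2326 CPM in sham and 54.2 to 149 (median 64.6) in UUO. Slc6a20b, a proline carrier of the brush border, was at 179.8, 169 and 154 CPM in sham and 9.06 to 15.1 (median 10.7) in UUO. Slc16a4, a monocarboxylate carrier of the same family as the lactate carriers, went from 73.2, 72.1 and 83.7 to 8.998 to 12.7 (median 11.8) CPM. Among the 54 that rose were Slc7a2, the cationic amino acid carrier that takes up arginine (11.03, 17.7 and 13.5 CPM in sham and 121 to 152 (median 139) in UUO), Slc25a24, the calcium-sensitive mitochondrial carrier of ATP-magnesium (2.93 ± 0.18), and Slc44a2, a choline carrier (1.15 ± 0.09). Families of conjugating and lipid enzymes were counted by symbol: of 14 glucuronosyltransferase genes (Ugt) 12 fell and 1 rose (median -3.15), of 10 carboxylesterase genes (Ces) 7 fell and none rose (median -3.80), and of 26 acyl-CoA synthetases and thioesterases 19 fell and 3 rose (median -1.76). Other families were less one-sided: of 21 aldehyde dehydrogenases (Aldh) 10 fell and 5 rose, or 3 without sham kidney 1 or UUO kidney 4 or 5, of 15 aldo-keto reductases (Akr) 8 fell and 2 rose, and of 8 sulfotransferases (Sult) 4 fell and 1 rose (median 0.08). The 1 sulfotransferase rise was 0 without sham kidney 1, 3 without sham kidney 3 and 2 without UUO kidney 4. The Ugt1a genes share exons, so their counts may be split between them. Among the rises the aldo-keto reductase Akr1b8, which detoxifies reactive aldehydes, rose from 1.86, 1.92 and 1.89 to 33.8 to 57.2 (median 42.4) CPM.

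Selenoprotein genes, which include the deiodinases of thyroid hormone, moved in both directions. Of 25 selenoprotein and selenium genes 11 fell (44%) and 7 rose (28%), beside 26.4% and 27.5% of all genes, so the share that rose was near that over all genes. Their median was -0.35, which was 0.00 with UUO kidneys 5 and 6 only. Dio1, the deiodinase by which the kidney activates thyroid hormone, was at 75.2, 80.7 and 60.1 CPM in sham and 8.55 to 15.9 (median 9.56) in UUO (-2.78 ± 0.21). Dio2, the activating deiodinase of brain, muscle and brown fat, was at 0.287, 2.56 and 1.89 CPM in sham and 4.097 to 61.4 (median 24.8) in UUO (4.23 ± 0.83). UUO kidneys 1 to 6 were at 4.097, 18.5, 10.8, 31.1, 48 and 61.4 CPM, with the highest values in kidneys 4 to 6. It did not pass in limma-voom (adjusted p = 0.11), and without sham kidney 2 its log2 fold change was 4.85. The thyroid hormone receptor Thrb fell (-1.69 ± 0.10) and Thra did not pass (0.09 ± 0.11). Sepn1, a selenoprotein of the endoplasmic reticulum, rose from 6.16, 6.87 and 8.34 to 38.2 to 61.8 (median 48.6) CPM, and Sephs2, which makes the selenium donor for all of them, fell by 1.88 on the log2 scale.

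Metals showed no common direction. Of 45 genes of iron, haem, copper and zinc 15 rose (33.3%) and 17 fell (37.8%), beside 27.5% and 26.4% of all genes. The zinc importer Slc39a5 fell from 55.3, 49.5 and 43.6 to 2.31 to 3.11 (median 2.64) CPM and Alas1, the first step of haem synthesis, from 309, 457 and 362 to 63.8 to 87.6 (median 68.1). The transferrin receptor Tfrc, by which iron enters cells, fell (-1.78 ± 0.17). Carriers of iron and copper in the fluid phase rose: ceruloplasmin, Cp, from 156, 148 and 166 to 585 to 747 (median 629) CPM, and transferrin, Trf, from 36.97, 39.96 and 34.1 to 105 to 169 (median 126). Slc11a1, the iron carrier of the macrophage phagosome, rose by 2.85 on the log2 scale, and by 3.61 without sham kidney 3. The metallothionein genes behaved differently: Mt2 rose (2.23 ± 0.22), and Mt1 did not pass (0.26 ± 0.17).

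Most cytoskeleton genes rose. Of 39 genes of actin and non-muscle myosin 31 rose and 6 fell (median 1.09). Tmsb10, which binds free actin, was at 32.5, 31.5 and 36.9 CPM in sham and 238 to 287 (median 279.8) in UUO, a log2 fold change of 3.02 ± 0.11 (adjusted p = 2.1e-11, edgeR's quasi-likelihood test). Marcksl1, Fscn1, which bundles actin in cell protrusions, and the macrophage and T cell bundler Lcp1 rose by 2.69, 2.34 and 2.68 on the log2 scale. The 6 that fell were Espn (-2.02 ± 0.14) and Vil1 (-1.96 ± 0.16), which bundle actin in microvilli, and Baiap2l1, Pls1, Ezr and Rdx. Ezr and Msn, paralogs that tie actin to the membrane, moved in opposite directions, Ezr from 1110.1, 1179 and 935 to 638 to 869 (median 769.5) CPM and Msn from 308, 335 and 311 to 707 to 867 (median 824). Their groups did not overlap. In the tubulin list 13 of 20 rose and 5 fell (median 1.06). Tubb5 rose from 60.3, 68.1 and 62.3 to 293 to 413 (median 366) CPM, and Tuba4a fell (-1.21 ± 0.17). Tubulin genes are close copies, and reads could be split between them. Tubb3, the neuronal beta tubulin, had no count in any sham library and was at 0.482 to 3.39 (median 2.16) CPM in UUO. Of 23 annexin and S100 genes, which bind calcium at membranes, 15 rose and 3 fell. S100a6 went from 10.2, 14.7 and 7.96 to 70.8 to 119 (median 100.1) CPM and Anxa1, which limits neutrophil entry, from 15.05, 18.7 and 18.9 to 79.6 to 125 (median 104). The 3 falls were those of S100g, Anxa13 and Anxa11. S100g, the calcium-binding protein of the distal tubule, fell from 430.0, 256 and 296 to 16.9 to 47.2 (median 32.8) CPM.

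Factors of the embryonic kidney moved both ways. Of 32 genes of kidney development 12 rose (37.5%), 6 fell (18.8%) and 14 did not pass (median 0.25). Over all genes 27.5% rose and 26.4% fell, and the 56.2% of the list that passed was near the 53.9% over all genes. The SOX genes led the rises. Sox4 was at 31.4, 27.8 and 32.8 CPM in sham and 175 to 224 (median 191) in UUO (2.67 ± 0.12). Sox9, which marks repairing tubule cells, was at 3.01, 1.12 and 6.06 CPM in sham and 31.7 to 46.1 (median 42.2) in UUO, with a log2 fold change of 3.61 that was 4.26 without sham kidney 3. Sox11 rose likewise (3.04 ± 0.36, and 4.12 without sham kidney 3). The stromal factor Tcf21 and the progenitor surface gene Cd24a rose by 1.93 and 1.95. Among the genes that fell were Lhx1 (-2.37 ± 0.17), needed for the tubule anlage, and Sall1 (-1.27 ± 0.10), needed for the nephron progenitor. The nephron lineage factors Pax2 and Pax8 did not pass. Pax8 was at 155, 163 and 128 CPM in sham and 125 to 181 (median 147) in UUO, and Pax2 at 58.6, 45.4 and 39.02 and 30.9 to 53.1 (median 45.8), and the groups overlapped. Other transcription factor families rose in part. Of 25 Runx, Ets and Gata genes 16 rose and 2 fell (1 with total counts only), led by Runx1, the blood and epithelial repair factor, from 7.74, 10.7 and 13.3 to 99.3 to 118 (median 113) CPM. Of 15 Krüppel-like factors 7 rose and 3 fell: Klf6 rose (2.07 ± 0.13) and Klf15, a regulator of amino acid breakdown, fell from 112, 143 and 118 to 7.28 to 15.7 (median 12.5) CPM. Foxj1, the switch for motile cilia, rose to 7.23 to 10.4 CPM from 0.143 to 0.758, with a log2 fold change of 4.52 that was 5.25 without sham kidney 3.

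In the Notch, Hedgehog and Hippo lists more genes rose than fell. In the Notch pathway 13 of 23 genes rose and 3 fell (median 0.61), among them the receptors Notch1, Notch2 and Notch3, the ligand Jag1 and the nuclear partner Rbpj. The largest rises were those of Dtx4, a ubiquitin ligase of the pathway (23.2, 16.6 and 24.2 CPM in sham and 113 to 154 (median 134) in UUO), and of Heyl, a target in mural cells (2.15 ± 0.23). The fringe gene Rfng fell (-1.16 ± 0.14). In the Hedgehog pathway 7 of 15 rose and 3 fell. The coreceptor Cdon rose (1.78 ± 0.16) and the ligand of the tubule, Ihh, fell from 23.1, 19.98 and 21.6 to 5.0003 to 10.8 (median 6.56) CPM. Ptch1 and Sufu were the other Hedgehog genes that fell. With UUO kidneys 5 and 6 only, 4 Hedgehog genes rose. In the Hippo pathway 18 of 31 rose and 5 fell (median 0.52). Tead2 and its cofactor Vgll3 rose by 2.26 and 2.35, and the upstream scaffold Wwc1 (KIBRA) fell from 557, 523 and 456 to 239 to 304 (median 259) CPM. Wwc2, Nuak2 and Amotl2 fell too. Whether any of these pathways was more active was not tested.

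More adhesion and guidance genes rose than fell, and polarity genes moved both ways. Of 27 cadherin and desmosome genes 16 rose and 4 fell (median 0.62). Cdh11, the cadherin of fibroblasts, was at 13.04, 17.4 and 22.5 CPM in sham and 145 to 309.9 (median 199) in UUO, and Cdh3 (P-cadherin) at 12.2, 15.98 and 15.7 and 88.4 to 114 (median 92.3). The epithelial cadherin Cdh1 rose (0.63 ± 0.11), as did Cdh2 (0.83 ± 0.19), whereas the kidney-specific Cdh16 fell (-0.62 ± 0.11). Of 53 semaphorin, ephrin, slit and netrin genes, which steer growing axons, vessels and cells, 31 rose and 6 fell (median 0.49), or 3 with total counts only. Slit3 went from 37.1, 37.9 and 32.8 to 107 to 203 (median 153) CPM, and Epha3 rose by 2.01. Of 27 polarity and tight junction scaffold genes 10 rose (37%) and 9 fell (33.3%), or 4 with total counts only. Over all genes 27.5% rose and 26.4% fell. The apical kinase Prkcz fell from 85.1, 87.9 and 71.6 to 20.8 to 33.7 (median 28.9) CPM, and the junction scaffold Tjp1 rose (0.73 ± 0.10).

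Growth factor genes moved in both directions within families. Of 52 genes of the insulin-like, fibroblast, hepatocyte and neurotrophic factor families 25 rose (48.1%) and 14 fell (26.9%), with a median of 0.44. Over all genes 27.5% rose and 26.4% fell, so the share that fell was near that over all genes. Fgf1, the acidic fibroblast growth factor, was at 287, 269 and 245 CPM in sham and 44.1 to 64.8 (median 47.7) in UUO (-2.42 ± 0.11), while Fgf2 rose (1.60 ± 0.40, and 2.33 without sham kidney 2). The neurotrophin Bdnf fell from 12.3, 19.7 and 14.02 to 1.78 to 4.05 (median 2.68) CPM. Igf1 rose from 16.5, 13.4 and 25.8 to 49.3 to 124 (median 74.5) CPM and Igf2 fell from 84.4, 28.1 and 30.5 to 2.39 to 8.604 (median 4.06). The fall of Igf2 (-3.42 ± 0.35) was 2.70 on the log2 scale without sham kidney 1. The activin chain Inhba was at 0.716, 2.08 and 0.568 CPM in sham and 11.8 to 34.9 (median 26.3) in UUO, with a log2 fold change of 4.46 that was 5.26 without sham kidney 2. Of 25 imprinted genes 6 rose and 6 fell (24% each), near the 27.5% and 26.4% over all genes. H19, the noncoding neighbour of Igf2, was at 0, 0.1598 and 0.758 CPM in sham and at 9.802, 1.54, 1.86, 12.03, 28.8 and 15.7 CPM in UUO kidneys 1 to 6. H19 and Igf2 moved in opposite directions. The rise of H19 (5.36 ± 1.52, adjusted p = 0.0068, edgeR's quasi-likelihood test) rests on wide spread: its adjusted p was 0.064 with the 4 receptor-gene libraries left out and 0.20 in limma-voom, so neither passed, and its log2 fold change was 7.07 without sham kidney 3 and 4.72 without sham kidney 1.

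Hormone receptor genes moved both ways, and more nuclear receptors fell than rose. Of 53 hormone and peptide receptor genes and ligands 23 rose (43.4%) and 11 fell (20.8%), beside 27.5% and 26.4% of all genes (median 0.44). The prolactin receptor Prlr was at 386, 344 and 374 CPM in sham and 26.7 to 74.96 (median 37.3) in UUO and the growth hormone receptor Ghr at 667, 624 and 740.3 and 88.1 to 167 (median 99.1). The alpha-2B adrenergic receptor Adra2b fell (-2.84 ± 0.21). Endothelin-1, Edn1, was at 0.573, 1.598 and 4.74 CPM in sham and 20.8 to 36.7 (median 24.7) in UUO, with a log2 fold change of 3.60 that was 4.62 without sham kidney 3. Its A receptor Ednra rose from 4.73, 5.43 and 8.904 to 29.1 to 43.1 (median 36.2) CPM, and its B receptor Ednrb did not pass (-0.12 ± 0.18). The ATP-gated channel P2rx7 rose from 5.73, 7.51 and 12.5 to 29.4 to 39.3 (median 33.2) CPM. Of 41 nuclear receptors 19 fell and 7 rose (median -0.41), or 13 with total counts only and 11 without the 4 receptor-gene libraries. Among those that fell were receptors that sense lipids and bile acids or drive mitochondrial genes: Hnf4a (731, 655 and 599 CPM in sham and 63.6 to 156 (median 78.8) in UUO), Ppara (-2.84 ± 0.24), Nr1h4 (-2.77 ± 0.14) and Esrra (-1.48 ± 0.14). The glucocorticoid receptor Nr3c1 rose (0.81 ± 0.10), as did Nr2f2 (COUP-TFII), a factor of veins and stroma, from 180.1, 179 and 189 to 363 to 494 (median 425) CPM.

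Most genes of a mixed list of meprins, peptidases and brush border hydrolases fell, and many secreted and membrane proteases rose. In that list, which also holds genes such as Aspa, Pdzk1 and Klk1, 24 of 27 fell and 1 rose (median -2.20). Mep1b, a meprin subunit, was at 171, 139 and 160.3 CPM in sham and 2.12 to 10.8 (median 3.43) in UUO, and the kallikrein Klk1 at 1556, 1005 and 1130.0 and 52.7 to 117 (median 83.2). The other 3 genes, all ectoenzymes, were apart from the rest of the list: Enpp1 rose (0.63 ± 0.15), and Dpp4 (-0.21 ± 0.11) and Nt5e (0.01 ± 0.13) did not pass. Further, 19 of 28 ADAM and ADAMTS proteases rose and 2 fell (median 1.20), or 1 without sham kidney 1. Adamts2, which trims procollagen, went from 10.7, 13.9 and 19.5 to 105 to 234 (median 179) CPM. Of 21 serpins 13 rose and 4 fell (median 2.04). Serpina3n was at 0.287, 2.88 and 0.758 CPM in sham and 24.3 to 75.3 (median 47.6) in UUO, with a log2 fold change of 5.24 that was 6.63 without sham kidney 2. It belongs to a cluster of near copies, so its counts are uncertain. Serpinf2, the plasmin inhibitor, fell from 66.5, 58.2 and 67.4 to 0.696 to 7.198 (median 2.39) CPM.

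More clotting, lectin and glycosaminoglycan genes rose than fell. Of 25 coagulation genes 13 rose and 3 fell, or 5 without the 4 receptor-gene libraries. Tissue factor, F3, the trigger of clotting, rose from 9.03, 10.4 and 11.6 to 55.1 to 98.4 (median 77.6) CPM, and the thrombin receptor F2r rose from 53.2, 53.1 and 61.2 to 187 to 371 (median 259). The anticoagulant protein C gene Proc fell from 83.4, 74.5 and 79.9 to 8.03 to 17.7 (median 9.17) CPM, while its cofactor Pros1 rose by 2.53 on the log2 scale. F13b, the B subunit of clotting factor XIII, fell from 85.4, 69.5 and 76.5 to 1.12 to 7.94 (median 1.82) CPM. Of 21 galectins and lectins 14 rose and 1 fell (median 1.98), or 2 without UUO kidney 6 and 3 without the 4 receptor-gene libraries. Lgals3, galectin-3, was at 16.8, 18.4 and 13.5 CPM in sham and 59.1 to 85.3 (median 73.2) in UUO, and the epithelial galectin Lgals4 fell from 42.6, 28.8 and 15.9 to 1.49 to 10.9 (median 6.05). Of 45 genes that build or trim heparan and chondroitin sulfate 26 rose and 5 fell (median 0.76). The chondroitin sulfotransferase Chst12 rose from 1.15, 2.56 and 1.89 to 12.3 to 19.1 (median 15.9) CPM, while Papss2, which makes the sulfate donor that these enzymes need, fell from 329, 274 and 312 to 43.1 to 66.2 (median 51.1).

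More lipid genes fell than rose. Of 43 genes of lipid droplets, uptake and lipoproteins 19 fell and 9 rose (median -0.54). Lpin1, which makes diacylglycerol, was at 240.0, 302 and 218 CPM in sham and 41.5 to 51.7 (median 47.9) in UUO. The lipoprotein lipase Lpl fell (-2.33 ± 0.17). Of the genes that build secreted lipoproteins, Apob fell by 1.97 and Mttp fell by 1.77. The cholesterol exporters Abca1 (134, 132 and 117 CPM in sham and 367 to 469 (median 431) in UUO) and Abcg1 (1.73 ± 0.15), the phospholipid transfer protein Pltp (2.82 ± 0.19), apolipoprotein E (Apoe, 1.37 ± 0.16) and the droplet coat Plin2 (1.10 ± 0.11) rose. Fatty acid synthase, Fasn, did not pass (-0.04 ± 0.47). In the sphingolipid list 14 of 30 rose and 6 fell. Ugcg, which starts glycosphingolipid synthesis, rose from 10.2, 8.79 and 8.15 to 30.2 to 55.8 (median 38.3) CPM. The sphingosine kinase Sphk1 and the sphingosine-1-phosphate receptors S1pr2 and S1pr3 rose by 1.40, 2.77 and 1.21, and the paralog Sphk2 fell.

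Calcium signalling genes rose more often than they fell, and release channels moved apart. Of 45 genes of calmodulin and calcium signalling 24 rose and 9 fell (median 0.51). The inositol trisphosphate receptors Itpr1 and Itpr2 fell, Itpr1 from 1799, 1778 and 1295 to 424 to 672 (median 574) CPM, and Itpr3 rose from 70.5, 64.9 and 54.6 to 115 to 195 (median 176). The groups did not overlap for any of the 3. Calb1, the calcium buffer of the distal tubule, fell by 4.36 on the log2 scale, and the kinase Prkcb rose by 1.98.

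Organelles were affected unequally. Of 49 genes of mitochondrial import, dynamics and genome upkeep 33 fell and 3 rose (median -0.60). The matrix chaperone Hspd1 was at 321, 304 and 363 CPM in sham and 90.3 to 162 (median 112) in UUO, and the mitochondrial RNA polymerase Polrmt at 92.996, 80.1 and 65.7 and 22.7 to 31.6 (median 27.1). Tfam, which packs the mitochondrial genome, did not pass (-0.03 ± 0.13). The count of rises was 1 without sham kidney 2, 1 without the 4 receptor-gene libraries and 5 with total counts only. Of 20 peroxisome biogenesis genes 15 fell and none rose (median -0.83), though 1 rose without sham kidney 3, UUO kidney 3 or the 4 receptor-gene libraries, and 2 with total counts only. The falls included the membrane channel Pxmp2 from 45.3, 44.1 and 33.9 to 4.05 to 6.34 (median 5.85) CPM. Of 22 vacuolar ATPase genes 12 fell and none rose (median -0.31), or 1 with total counts only. The falls were largest in Atp6v1c2 (-2.38 ± 0.15) and Atp6v0a4 (-2.09 ± 0.11), subunits of the acid-secreting cells, and the common subunit Atp6v0d1 did not pass (-0.01 ± 0.15). Of 40 lysosomal genes 15 rose and 7 fell, so that 55% passed, near the 53.9% over all genes. The macrophage marker Cd68, Hexa and Gusb rose by 2.41, 1.73 and 1.62, and Neu1 and Glb1 fell by 1.40 and 0.97. The 7 falls were 3 without sham kidney 2, 4 without sham kidney 1, 14 without the 4 receptor-gene libraries and 2 with total counts only. Of 35 autophagy and mitophagy genes 17 fell and 5 rose (median -0.35), with the mitophagy pair Park2 and Pink1 down by 1.98 and 0.83. With scaling by total counts only, 9 of them fell and 8 rose. Of 46 genes of the secretory pathway 18 rose and 5 fell (median 0.32). The falls were 3 without sham kidney 1, 10 without the 4 receptor-gene libraries and 1 with total counts only, and the rises were 29 with total counts only or with UUO kidneys 5 and 6 only. The retrieval receptor Kdelr3 rose from 2.58, 1.598 and 2.27 to 9.83 to 16.5 (median 10.8) CPM.

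Some upkeep lists had smaller shares called under the scaling used. Beside 53.9% of all genes, 8 of 32 proteasome genes, 5 of 20 cytosolic tRNA synthetases, 33.3% of 51 cilium and cystic kidney genes and 18 of 40 chaperones passed the test. With total counts only the rises went from 5 to 15 in the proteasome list, from 3 to 11 in the synthetases, from 6 to 13 in the cilium list and from 11 to 19 in the chaperones, so these shares depend on the scaling. The chaperone rises were 7 without UUO kidney 5, and the 2 synthetase falls were 1 without sham kidney 1. The proteasome median was 0.09, and its 5 rises and 3 falls moved with the libraries used. The rises were 2 without sham kidney 1, 2 or 3 or UUO kidney 5 or 6 and 3 without UUO kidney 1 or 4, and the falls were 1 without sham kidney 1 or 2 or UUO kidney 2 or 4. There were 2 rises and 8 falls without the 4 receptor-gene libraries and 13 and 1 with UUO kidneys 5 and 6 only. Of 54 chromatin genes 51.9% passed, near the share over all genes. Among them Uhrf1, which maintains DNA methylation in dividing cells, rose from 3.73, 1.598 and 5.68 to 23.5 to 37.1 (median 29.4) CPM, and the methylcytosine oxidase Tet2 fell from 603, 562 and 419.8 to 111 to 219.9 (median 159.9). In the cilium list Bicc1 rose (0.99 ± 0.10), Pkd2 fell (-0.45 ± 0.08) and Pkd1 did not pass (0.43 ± 0.20), although it did without UUO kidney 6 (adjusted p = 0.023). Of the RNA-binding proteins the splicing factor Ptbp3 rose from 99.01, 105 and 129 to 321 to 396 (median 367) CPM and the epithelial splicing factor Esrp2 fell (-1.22 ± 0.19), while Esrp1 did not pass (0.22 ± 0.11), although it did without UUO kidney 6 (adjusted p = 0.045). Of 44 translation factors 19 rose (43.2%, beside 27.5% of all genes) and 5 fell (11.4%, beside 26.4%). The 54.5% of them that passed was near the 53.9% over all genes. The falls were 2 without sham kidney 1 or 2 and 3 without UUO kidney 6, and with total counts only 29 rose and 2 fell. Of 351 zinc finger genes (Zfp) 59 rose, 72 fell (42 without sham kidney 1) and 220 did not pass, and with total counts only 107 rose and 33 fell.

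**Figure D5:**
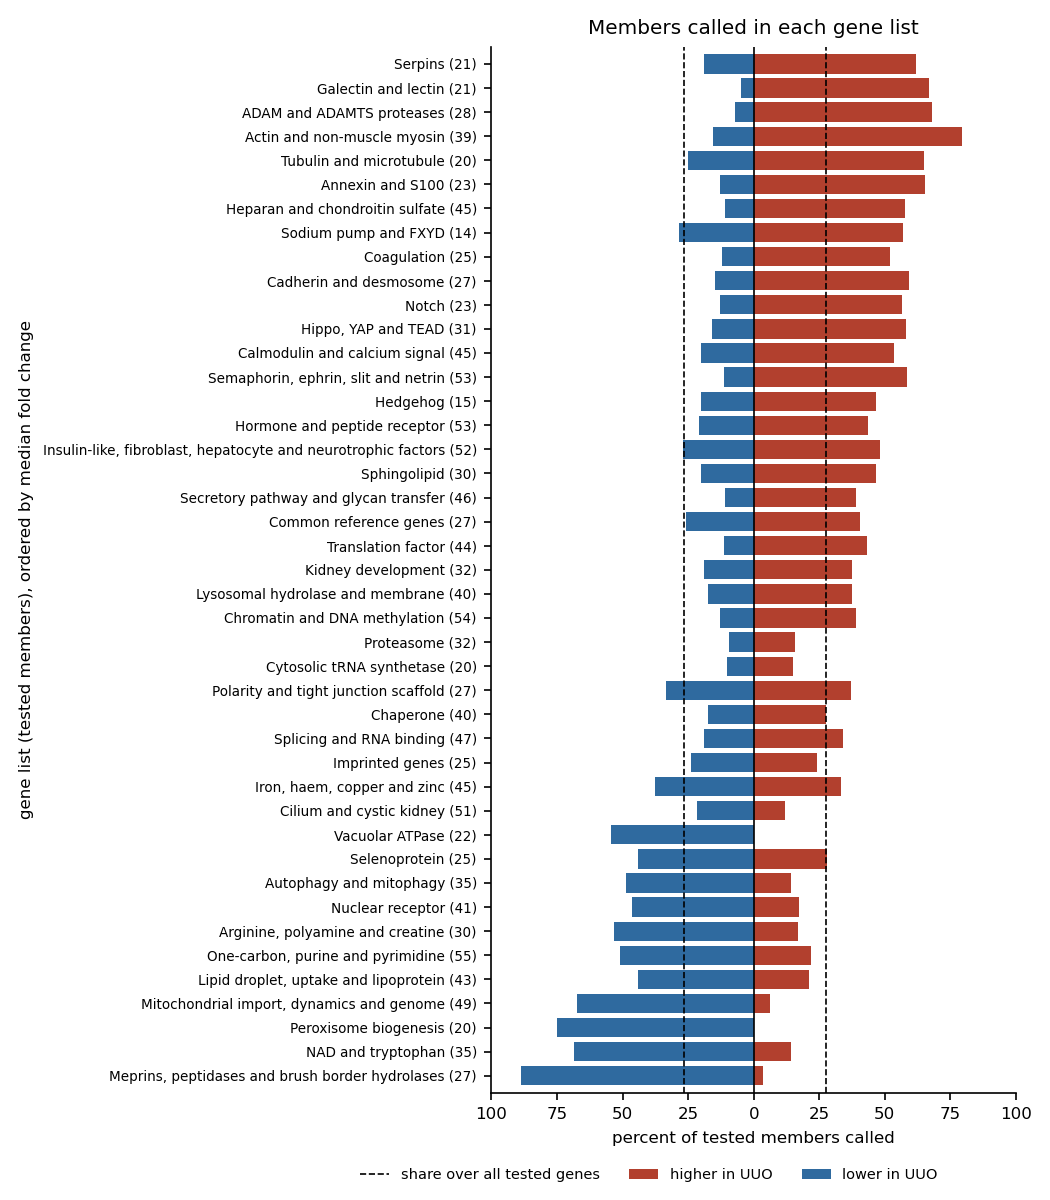
Share of the members of each gene list that rose (to the right) and fell (to the left), in percent of those tested, with the number tested beside each list and the shares over all genes, 27.5% and 26.4%, as dashed lines. Of the mixed list of meprins, peptidases and brush border hydrolases 88.9% fell and of the actin list 79.5% rose. The proteasome and synthetase bars end inside both dashed lines.

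Many genes that laboratories use as references were not steady. Of 27 common reference genes 11 rose (40.7%), 7 fell (25.9%) and 9 did not pass. Over all genes 27.5% rose and 26.4% fell. Gapdh was at 881, 796 and 707 CPM in sham and 266 to 475 (median 332) in UUO, and Actb at 1378, 1550.1 and 1389.9 and 2633 to 3298 (median 3128), so the pair moved in opposite directions without overlap. B2m rose (2.04 ± 0.27) and Tubb5 rose by 2.50 on the log2 scale. Sdha and Pgk1 fell by 1.11 and 1.19. Among those with small absolute changes were Ubb (0.04 ± 0.12), Ppia (0.10 ± 0.16), Ppib (0.16 ± 0.19), Hsp90ab1 (0.16 ± 0.14) and Polr2a (0.21 ± 0.10), none of which passed. Of these Polr2a was called higher with upper-quartile scaling, Hsp90ab1 and Polr2a with total counts only, and Polr2a also without sham kidney 1. Among well expressed genes of small error those nearest to no change were Kat2b, Fam20b, Ndst1, Meis2, Actn4, Znrf1, Fbxw11, Pax8, Tmem87b and Gimap4. Fam20b, a kinase of proteoglycan synthesis, was at 96.6, 107 and 108 CPM in sham and 93.3 to 110.4 (median 107) in UUO.

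A few genes varied far more among the 6 obstructed kidneys than the rest. Those with the largest standard deviation of log2 CPM in UUO were Cfd, Car3, Cilp, Erdr1, Neat1, Actg2, Thbs4, Dio2, Scd1 and Hba-a1. Cfd, the adipocyte-secreted protease adipsin, was at 0.562, 0.385, 0.508, 6.52, 26.7 and 107 CPM in UUO kidneys 1 to 6 and at 0.4299, 3.04 and 0.379 in sham. Cilp, a matrix protein of cartilage and stroma, was at 10.8, 4.24, 4.91, 27.7, 55.7 and 65.1 CPM in the same order. Hba-a1, an alpha globin chain that shares its sequence with Hba-a2, was at 17.997, 13.7, 16.3, 69.1, 95.9 and 87.03 CPM. All 3 were higher in UUO kidneys 4 to 6 than in kidneys 1 to 3, and none of them passed the main test against sham. In edgeR's quasi-likelihood test Cilp passed without UUO kidney 2 (adjusted p = 0.037), without UUO kidney 3 (0.040) and with total counts only (0.044). That test also called Cilp with only the sham and UUO libraries in the fit (0.024) and with UUO kidneys 5 and 6 only (0.040). It also passed in DESeq2 with all libraries (0.016). The nuclear noncoding RNAs ran the other way: Neat1 was at 2247, 3607, 3402, 1463, 411 and 271 CPM. Malat1, named here after its values were seen, was at 64252, 71929, 65416, 34035, 20513 and 12599 CPM and at 93005, 92299 and 66872 in sham. It did not pass against sham (-0.91 ± 0.48), but it did without the 4 receptor-gene libraries (-0.65, adjusted p = 0.036, edgeR's quasi-likelihood test). In the same test it passed with UUO kidneys 5 and 6 only (-2.33, 0.0028) and with a term for the receptor-gene libraries (-1.19, 0.0016). Neat1 did not pass with all libraries (-0.56), but it did with UUO kidneys 5 and 6 only (-3.02, 0.011) and with that term (-1.24, 0.041). What sets kidneys 4 to 6 apart was not tested.

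Markers of tissues that could come with the sample moved as well. In bulk tissue fewer cells of a type and less RNA per cell cannot be told apart. All 10 urothelium markers rose, and their summed level was 18.2 to 45.7 CPM in sham and 126.2 to 415.7 CPM in UUO. The smooth muscle and pelvic wall markers summed to 998.9 to 1627 CPM in sham and 1315 to 2095 CPM in UUO, with 5 of 10 up and 1 down. The rises were 2 without the 4 receptor-gene libraries and 3 with the replicate block, and the fall was 0 without sham kidney 2 and 2 without UUO kidney 4. The adipocyte markers summed to 2.15 to 17.4 CPM and 0.847 to 166.5 CPM, with none of 7 called. Of the 10 dendritic cell markers 6 rose, among them Ccr7, the receptor that guides these cells to lymph nodes, from 0.143, 0.1598 and 0.189 to 2.92 to 5.704 (median 4.36) CPM. The 9 Schwann cell and nerve markers summed to 63.5 to 94.9 CPM in sham and 221.4 to 258.9 CPM in UUO, with 3 up and 1 down, while the defining Sox10 and S100b did not pass. The markers of some other tissues had lower sums: those of skeletal muscle summed to 32.9 to 60.1 CPM in sham and 4.24 to 16.6 CPM in UUO, and those of pancreas to 12.2 to 24.1 CPM and 2.22 to 8.52 CPM. Of 7 skeletal muscle markers tested 2 fell, 1 rose and 4 did not pass, and the smallest p was that of Pvalb. The muscle rise was 0 without sham kidney 1 or 2. Of 2 pancreas markers tested 1 rose and 1 fell. With so few members called, a lower sum cannot be read as less of that tissue. The liver markers summed to 125.1 to 154 CPM in sham and 34.3 to 144.6 CPM in UUO, with 4 of 7 down and 1 up. The fall count of the liver list was 1 with UUO kidneys 5 and 6 only. The part of these tissues in the changes given above was not tested.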

How the data were processed

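Total RNA of mouse kidney was sequenced with a stranded SMARTer total RNA kit for low input (Pico, v2), per the labels' protocols. The authors deposited 1 table of expected counts per gene, read as such from its values, which are not all whole. TopHat2 2.1.1, Cuffdiff 2.2.1 and mm10 are named in the submitters' processing notes; the counter, the annotation and the use of strand are not given in the sources used here. Reads of overlapping or antisense genes, and of close copies (Hba-a1, Ugt1a, Serpina3n, Tubb and Tuba genes), may therefore be split or shared. Columns were matched to samples by the code in the sample titles, and groups came from the labels.

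Expected counts were rounded. Genes were kept by edgeR 4.0.16 (R 4.3.3) filterByExpr with a minimum count of 10, scaled by TMM and tested by the quasi-likelihood test in 1 fit of all 15 libraries, with the contrast UUO minus sham and Benjamini-Hochberg adjustment over all 16752 genes at 0.05. CPM used the scaled library size. Standard errors were the fold change divided by the square root of F. The fit was run on simulated counts in which few genes changed, equally in both directions. Most genes passed the test in these data, so that run cannot speak for the scaling used here. Alternatives were other scalings, filters, DESeq2 1.42.0, limma 3.58.1 voom, libraries left out, a replicate block and a term for the receptor-gene libraries. Total counts were 5526640 to 15422600 per library, and no interval for counting error is given beside the spread between libraries.

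Gene lists, members and the rule for named genes were written with earlier results of these data known. The rule took the 15 largest rises and falls in fold and in CPM among genes of at least 5 CPM whose groups did not overlap, the 10 smallest p each way, in each list the 6 smallest p and up to 4 called against the list's median, in each symbol family up to 3 each way, all reference and sodium pump genes, the 10 genes of at least 50 CPM nearest to no change with a standard error of at most 0.15, and the 10 of at least 20 CPM that varied most in UUO. Genes named outside it were chosen after their values were seen: C3ar1, Tdo2, Kmo, Qprt, Nadsyn1, Nampt, Nnmt, Cbs, Cth, Dmgdh, Impdh1, Mthfd2, Tyms, Ddah1, Nos1, Thra, Slc11a1, Mt1, Msn, Tubb3, Pax2, Vgll3, Cdh1, Cdh2, Slit3, Epha3, Tjp1, Fgf2, Bdnf, Igf1, Inhba, Edn1, Ednrb, Hnf4a, Mep1b, Dpp4, Nt5e, Serpina3n, Apob, Mttp, Fasn, S1pr3, Itpr3, Prkcb, Hspd1, Tfam, Atp6v0d1, Cd68, Pkd1, Esrp1 and Malat1. Other members named without values to complete a list or a subunit set were chosen in the same way. Some genes and 1 further promoter motif that these choices also took are not reported here. Promoter sequences are those of RefSeq on GRCm38.p6.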

Additional observations from a re-analysis of the deposited data

Results flagged for a closer look

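Among the 223 genes given above with values, 13 had 1 obstructed kidney whose gap to the nearest other kidney was, as a share of the range of the 6, above Dixon's critical limit. Chance flags about 1 in 20 such groups, and the genes are not independent of each other. UUO kidney 6, which is among the receptor-gene libraries, was the outlying kidney for 11 of the 13. It was the highest for Kap (230.7 CPM against 70.6 in the next kidney), Dio1 (15.9 against 10.3), Alas1 (87.6 against 70.5), Mt2 (56.8 against 43.2), Fgf1 (64.8 against 50.4), Igf2 (8.604 against 4.42), Ghr (167.0 against 110.5) and Mep1b (10.8 against 4.57). It was also the highest for Atp1a4 (3.31 against 0.634) and Cfd (107.4 against 26.7), and the lowest for Pkd2 (307.5 against 339.2). UUO kidney 5 was the highest for Aldh18a1 (29.9 against 24.9) and UUO kidney 2 the lowest for Tmsb10 (237.9 against 270.6). The part of the receptor-gene counts in these values was not tested.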

How the results depend on the processing

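Over 23 other settings the count of genes higher in UUO ran from 4093 to 6213, of genes lower from 3030 to 5104, of genes at least 4-fold higher from 733 to 1507 and of genes at least 4-fold lower from 633 to 913. With 1 library left out in turn these ranges were 4116 to 4826, 3603 to 4531 and 777 to 1507 for the first 3 counts. The count at least 4-fold higher moved by over 1.5 times without sham kidney 3 (1507) and without the 4 receptor-gene libraries (1398), and the cause was not tested. With total counts only, 6213 genes were higher and 3030 lower, and with UUO kidneys 1 to 4 or 5 and 6 only, 4485 or 4218 were higher and 4116 or 4170 lower. Replicate numbers in the labels were not used as pairs in the main fit. Deviations of same-numbered sham and UUO kidneys correlated at 0.145, 0.0916 and -0.225 over genes, and those of differently numbered kidneys at -0.201 to 0.288. With 3 same-numbered pairs, these values cannot show whether the samples were paired. With the replicate block 4352 genes were higher, 4081 lower, 886 at least 4-fold higher and 913 at least 4-fold lower. Of the 223 genes given with values, 204 kept their call and direction in all 23 settings, 7 lost their call in some setting (Dio2, Fxyd4, H19, Nnmt, Nos2, Sirt6 and Tyms), 12 gained one and none with a call changed direction. Depth limits rare genes most: under 1 CPM the median standard error was 0.84 on the log2 scale, and a gene of that level that did not pass may still differ.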
